A study of Homo sapiens with 8 samples.

Results

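The keratins of bladder epithelium were followed in RNA sequencing of the human bladder cancer cell lines UM-UC-3 and RT112. The 10 genes described here were chosen by name, as the keratins used to tell basal, intermediate and superficial urothelial cells apart: KRT5, KRT6A, KRT7, KRT8, KRT13, KRT14, KRT17, KRT18, KRT19 and KRT20. All 10 were found among the 27475 human genes of the deposited expression table, which lists 55 genes named as keratins. Both lines were transfected for 72 h with 100 pmol of siRNA, either 3 pooled sequences that target PAI-1 (siPAI-1) or 3 pooled scrambled sequences (Scr), so that the Scr cells were also transfected. The 4 groups, UM-UC-3 Scr, UM-UC-3 siPAI-1, RT112 Scr and RT112 siPAI-1, had 2 libraries each, 8 in all. Each line is a single established culture, kept in RPMI 1640 or DMEM, and the source does not say which medium was used for which line, so that line and medium cannot be told apart. Knock-down was carried out in 3 independent experiments, but nothing ties the 2 libraries of a group to separate ones of them, so that the p-values below measure only the spread between these libraries.

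Keratins are the intermediate filament proteins of epithelial cells. They fall into an acidic type I and a basic type II family, and a filament is built only from pairs of a type I and a type II chain, such as KRT14 with KRT5 in basal cells, KRT18 with KRT8 in simple epithelia and KRT13 with KRT4 in stratified epithelia that do not cornify. In normal urothelium KRT5 and KRT17 mark the basal layer, KRT13 the basal and intermediate layers, and KRT20 the superficial umbrella cells, whereas KRT7, KRT8, KRT18 and KRT19 are found through most layers and KRT6A and KRT14 are associated with squamous and repair states. Molecular subtypes of bladder cancer are named along the same axis from basal to luminal, and cells that lose epithelial traits commonly replace keratins with vimentin.

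The 4 type II members lie on chromosome 12 of GRCh38, at 12:52233243-52255853 (KRT7), 12:52487176-52493257 (KRT6A), 12:52514575-52520394 (KRT5) and 12:52897191-52949860 (KRT8). Of the 6 type I members, 5 lie on chromosome 17, at 17:40875889-40885242 (KRT20), 17:41500981-41505612 (KRT13), 17:41523617-41528308 (KRT19), 17:41582279-41586895 (KRT14) and 17:41619442-41624575 (KRT17). KRT18 is the type I gene that lies apart from that cluster, at 12:52948855-52952906 beside KRT8. The annotated ranges of KRT8 and KRT18 overlap, with the genes on opposite strands, and it is not stated whether strand was used when reads were assigned. The coding sequences of KRT6A, KRT6B and KRT6C are nearly identical, as are those of KRT14, KRT16 and KRT17 over long stretches, so that the division of reads between them is uncertain.

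Promoter sequences from RefSeq (GRCh38.p14) were held for only 3 of the 10 genes, and all 3 are shown. In the comparison of the lines KRT5 was all but missing from UM-UC-3, KRT8 was kept there at a low level, and KRT20 was near 0 in both lines. Each line gives the 250 bases before the annotated start, 5′ to 3′ on the gene's own strand (the minus strand in each case), at 12:52520395-52520644 for KRT5, 12:52926470-52926719 for KRT8 and 17:40885243-40885492 for KRT20. Capitals mark the letters ATAAAA, a form of the TATA box, on the gene's strand.
KRT5: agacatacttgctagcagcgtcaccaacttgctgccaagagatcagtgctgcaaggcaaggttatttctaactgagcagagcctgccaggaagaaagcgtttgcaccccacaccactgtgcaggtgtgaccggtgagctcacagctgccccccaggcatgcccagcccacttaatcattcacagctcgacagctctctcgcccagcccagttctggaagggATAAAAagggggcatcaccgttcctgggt
KRT8: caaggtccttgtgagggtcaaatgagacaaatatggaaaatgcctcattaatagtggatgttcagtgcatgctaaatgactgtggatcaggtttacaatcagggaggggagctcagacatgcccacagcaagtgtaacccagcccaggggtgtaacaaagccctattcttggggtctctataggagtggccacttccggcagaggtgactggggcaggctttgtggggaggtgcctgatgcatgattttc
KRT20: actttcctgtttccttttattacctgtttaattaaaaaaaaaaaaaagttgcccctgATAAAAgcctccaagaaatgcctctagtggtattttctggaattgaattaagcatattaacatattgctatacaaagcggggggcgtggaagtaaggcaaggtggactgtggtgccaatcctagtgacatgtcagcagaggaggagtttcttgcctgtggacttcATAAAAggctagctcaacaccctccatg
The letters ATAAAA began 29 bases before the start in KRT5 and 28 bases before it in KRT20, which held a further match 193 bases before the start and 1 on the opposite strand. The KRT8 window held no match on either strand. Among the 35093 windows of this length in the table, 14.8% held the letters on either strand, 8.76% held them on the gene's strand, and 1.75% held them on the gene's strand with a first base 40 to 21 bases before the start. The KRT8 window belongs to a start inside the gene's annotated range, which extends further upstream. GC content was 56% in the KRT5 window, 50.4% in the KRT8 window and 41.2% in the KRT20 window, beside a median of 58% over all windows. These matches describe the letters only, and nothing about the use of the sites was measured.

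The values below are TPM, the abundance of a gene's transcripts relative to all transcripts of the library, scaled by transcript length so that genes can be compared within a library. Library depth, estimated from the steps between the lowest FPKM values, was 29.4 to 34.1 M reads, though for some libraries a depth about 2 times as large fitted nearly as well. Of 7 epithelial markers, including EPCAM, CDH1 and CLDN4, all 7 were below 1 TPM in every UM-UC-3 library, with a sum of 0.92 to 2.79 TPM, while their sum in RT112 was 1055 to 1113 TPM. The 5 uroplakins, the plaque proteins of urothelium, summed to 0.47 to 1.95 TPM in UM-UC-3 and to 706.5 to 813.9 TPM in RT112. Epithelial and urothelial markers were thus present in RT112 and all but absent from UM-UC-3, where VIM, the vimentin gene, stood at 2852 to 3142 TPM against 6.04 to 8.09 TPM in RT112. Of 8 mesenchymal genes, 5, with VIM and SPARC among them, were lower in RT112 Scr than in UM-UC-3 Scr. The other 3 were higher: FN1 at a mean of 116.5 against 67.43 TPM, SNAI2 at 69.31 against 16.09 TPM and CDH2 at 19.38 against 9.915 TPM. Markers of leukocytes summed to at most 0.70 TPM and those of endothelium to at most 2.35 TPM in any library. The fibroblast list summed to 2.46 to 5.03 TPM in UM-UC-3 and 10.7 to 18.2 TPM in RT112, where LUM made up most of it and DCN and PDGFRA were at or near 0.

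A single UM-UC-3 library, Scr replicate 1, stood apart from the other 3 in several keratins that were low in UM-UC-3 and abundant in RT112. KRT18, at 178.81 TPM in Scr replicate 1, and KRT8, at 32.67 TPM, lay within the range of the other UM-UC-3 libraries. KRT13, the most abundant type I keratin of RT112, was listed at 0 TPM in UM-UC-3 Scr replicate 1 and at 5.26 TPM in Scr replicate 2, 4.57 TPM in siPAI-1 replicate 1 and 4.08 TPM in siPAI-1 replicate 2. KRT17 stood at 0.04 TPM in Scr replicate 1 and at 1.37, 1.31 and 1.1 TPM in the other 3 UM-UC-3 libraries. KRT19 stood at 0.52 TPM in that library and at 2.78, 2.21 and 2.89 TPM in the others. Set against the mean RT112 level of the same gene, KRT13 amounted to 0.132%, 0.115% and 0.102% in those 3 libraries, KRT17 to 0.116%, 0.111% and 0.0935%, and KRT19 to 0.0978%, 0.0778% and 0.102%, while Scr replicate 1 held 0%, 0.0034% and 0.0183%. These 3 keratins therefore appeared in 3 UM-UC-3 libraries at close to the same fraction of their RT112 level. Besides keratins, 13 genes were found that exceeded 300 TPM in every RT112 library and lay below 0.05% of the RT112 level in Scr replicate 1, among them EPCAM, UPK1B and LY6D. Their median was 0% of the RT112 level in Scr replicate 1, by the choice of the genes, and 0.118%, 0.102% and 0.141% in the other UM-UC-3 libraries. In the opposite direction, VIM in the RT112 libraries amounted to 0.202% to 0.271% of its mean UM-UC-3 level and SPARC to 0.074% to 0.123%. Where these traces came from was not tested, and values that moved by over 1.5 times without Scr replicate 1 are given with and without it.

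The first comparison asked how the keratins differ between the lines when PAI-1 is not depleted. All 10 keratins were higher in RT112 Scr than in UM-UC-3 Scr, with no overlap between the libraries of the lines, as were 34.6% of all genes tested. All 10 passed limma's moderated test at an adjusted p under 0.05, where 25.3% of the 19201 genes tested were called higher in RT112. The median log2 fold change of the 10 keratins was 9.26 against -0.06 over all genes tested, on the scale log2(TPM + 0.1), and it was 8.97 when UM-UC-3 Scr replicate 1 was left out. In a bulk library, a lower level in each cell and a smaller share of cells that hold the transcript cannot be told apart.

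**Figure D1:**
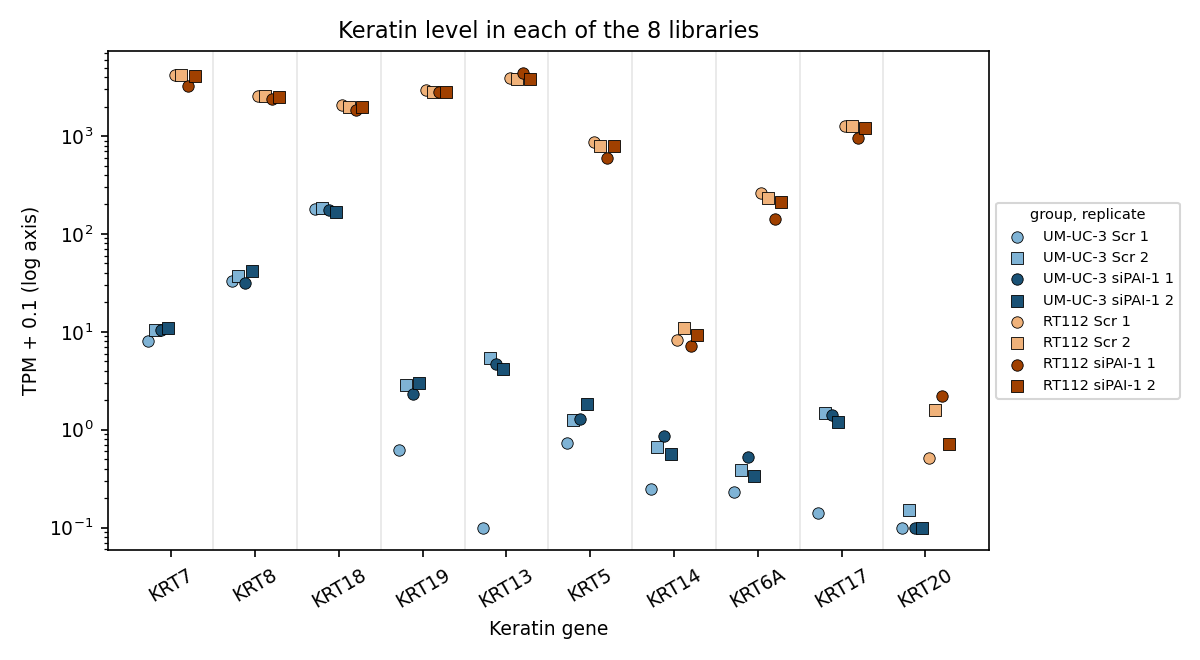
Level of each of the 10 keratins in the 8 libraries, as TPM + 0.1 on a log axis, with UM-UC-3 in blue and RT112 in orange, Scr in light and siPAI-1 in dark shades, replicate 1 as circles and replicate 2 as squares. For each gene the 4 RT112 libraries lie above the 4 UM-UC-3 libraries. UM-UC-3 Scr replicate 1 lies furthest below the other UM-UC-3 libraries for KRT13, KRT17 and KRT19, and it is also the lowest for KRT5, KRT6A, KRT7 and KRT14.

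Among those of the 10 keratins that exceeded 100 TPM in RT112, the pair of simple epithelium, KRT8 and KRT18, differed least between the lines. KRT18, the type I partner of KRT8, stood at 178.81 and 185.71 TPM in UM-UC-3 Scr and at 2054.79 and 2002.97 TPM in RT112 Scr. Its log2 fold change was 3.48 (SE 0.04), an 11.1-fold difference (adjusted p = 0.000208, limma), and of the 10 keratins only KRT20 had a smaller one. KRT8 stood at 32.67 and 37.21 TPM in UM-UC-3 Scr and at 2580.05 and 2566.49 TPM in RT112 Scr. That was a log2 fold change of 6.20 (SE 0.08), or 73.6-fold (adjusted p = 0.000208, limma). The pair was thus unequally reduced: TPM of KRT18 was 4.99 to 5.47 times that of KRT8 in UM-UC-3 Scr and 0.780 to 0.796 times that of KRT8 in RT112 Scr. The GENCODE 44 annotation lists 51 pseudogenes named after KRT8 and 68 named after KRT18. None had an entry of its own here, and any effect of them on this ratio was not tested. In every UM-UC-3 library KRT18 ranked between place 840 and place 948 of the genes by level, and KRT8 between place 3773 and place 4682.

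KRT7 and KRT19, which are widespread in urothelium and used together as markers of glandular and urothelial tumours, were both among the most abundant transcripts of RT112. KRT7 stood at 7.99 and 10.45 TPM in UM-UC-3 Scr and at 4193.33 and 4167.2 TPM in RT112 Scr, where it was the highest of the keratins and ranked at places 12 and 14 of all genes. The log2 fold change was 8.82 (SE 0.14; adjusted p = 0.000242, limma). KRT19, which lacks the tail domain of other type I keratins, stood at 2942.17 and 2788.45 TPM in RT112 Scr against 0.52 and 2.78 TPM in UM-UC-3 Scr. Its log2 fold change was 11.07 (SE 0.78; adjusted p = 0.0012, limma), and 9.96 (SE 0.05) without UM-UC-3 Scr replicate 1, which moved the fold from 2140 to 995.

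KRT13, the type I keratin of non-cornifying stratified epithelia, was close to KRT7 in abundance in RT112. It stood at 3882.05 and 3857.53 TPM in RT112 Scr and at 0 and 5.26 TPM in UM-UC-3 Scr. The log2 fold change was 12.37 with a wide SE of 2.02 (adjusted p = 0.0103, limma), and 9.50 (SE 0.02; adjusted p = 0.0122) without UM-UC-3 Scr replicate 1, the fold moving from 5290 to 722. Its usual type II partner KRT4 showed the same direction at a lower level, with 149.16 and 167.65 TPM in RT112 Scr and 0.05 and 0.23 TPM in UM-UC-3 Scr. The log2 fold change of KRT4 was 9.47 (SE 0.43; adjusted p = 0.000532, limma). KRT13 exceeded KRT4 by 23 to 26 times in RT112 Scr, so that the TPM of this pair was far from equal.

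The basal pair was also unequal in RT112. KRT5, the type II keratin of basal cells, stood at 878.71 and 783.75 TPM in RT112 Scr and at 0.63 and 1.16 TPM in UM-UC-3 Scr, a log2 fold change of 9.76 (SE 0.29; adjusted p = 0.000313, limma). KRT14, its partner in basal keratinocytes, reached only 8.08 and 10.74 TPM in RT112 Scr and 0.15 and 0.56 TPM in UM-UC-3 Scr, a log2 fold change of 4.53 (SE 0.56; adjusted p = 0.00473, limma). Without UM-UC-3 Scr replicate 1 it was 3.83 (SE 0.29; adjusted p = 0.0414, limma), the fold moving from 23.2 to 14.3. KRT14 was thus higher in RT112 but amounted to 0.0092 to 0.0137 of the KRT5 level there. KRT15, another type I keratin of basal cells, was likewise at 15.45 and 16.46 TPM in RT112 Scr against 6.97 and 3.91 TPM in UM-UC-3 Scr. KRT17, a type I keratin of basal and wounded epithelium, was the type I chain of this group with a level comparable to that of KRT5, at 1277.21 and 1258.31 TPM in RT112 Scr against 0.04 and 1.37 TPM in UM-UC-3 Scr. Its log2 fold change was 11.45 (SE 1.2; adjusted p = 0.00309, limma), and 9.75 (SE 0.02) without UM-UC-3 Scr replicate 1, the fold moving from 2790 to 862.

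KRT6A, a type II keratin induced in wounded and squamous epithelium, stood at 263.93 and 234.87 TPM in RT112 Scr and at 0.13 and 0.29 TPM in UM-UC-3 Scr. The log2 fold change was 9.70 (SE 0.30; adjusted p = 0.000314, limma). Its partner KRT16 did not follow it: KRT16 stood at 9.38 and 8.92 TPM in RT112 Scr and at 11.22 and 11.1 TPM in UM-UC-3 Scr, a log2 fold change of -0.28 (SE 0.11; adjusted p = 0.0985, limma). KRT6C was listed at 0.91 and 0.89 TPM in RT112 Scr and at 0 in UM-UC-3 Scr, so that KRT6A held nearly all of the level assigned to these near-identical genes. KRT20, the keratin of umbrella cells, was at 0.41 and 1.5 TPM in RT112 Scr and at 0 and 0.05 TPM in UM-UC-3 Scr. It passed the test in the line comparison (log2 fold change 2.88, SE 0.68; adjusted p = 0.0285, limma), but the call was lost when any single library was left out and with a pseudocount of 1 TPM (adjusted p = 0.0769). Of the 5 uroplakin genes, which belong to the same umbrella cells, UPK1A (0.36 to 1.96 TPM) and UPK3A (0 to 0.08 TPM) were near 0 in RT112 like KRT20, while UPK1B, UPK2 and UPK3B reached 580 to 644 TPM, 24.1 to 31.8 TPM and 102 to 136 TPM.

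**Figure D2:**
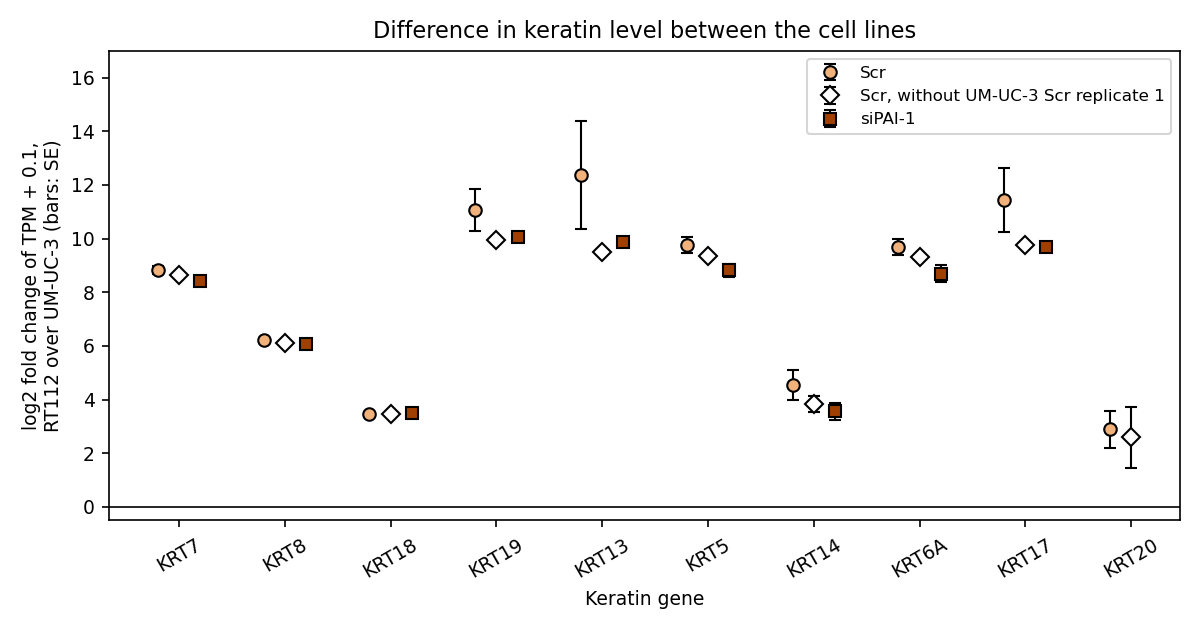
Log2 fold change of TPM + 0.1, RT112 over UM-UC-3, for each keratin, with bars of 1 standard error, in Scr cells (circles), in Scr cells without UM-UC-3 Scr replicate 1 (diamonds) and in siPAI-1 cells (squares). KRT18 and KRT8 show the smallest differences among the abundant keratins of these 10 (3.48 and 6.20 in Scr), and the wide bars of KRT13, KRT17 and KRT19 in Scr narrow without that library. KRT20 has no square because both UM-UC-3 siPAI-1 libraries were listed at 0.

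The order of the keratins by level was different in the lines. In RT112 Scr it ran KRT7, KRT13, KRT19, KRT8, KRT18, KRT17, KRT5, KRT6A, KRT14 and KRT20, and none of the 9 pairs of neighbours overlapped between the libraries. In UM-UC-3 Scr it ran KRT18, KRT8, KRT7, KRT13, KRT19, KRT5, KRT17, KRT14, KRT6A and KRT20, where KRT18, KRT8 and KRT7 were apart from their neighbours but 5 of the 9 pairs, those from KRT13 down to KRT6A, overlapped. In RT112 siPAI-1 the first pair, KRT13 and KRT7, changed places and overlapped, and the other 8 pairs did not overlap. In UM-UC-3 siPAI-1 the order was the same as in UM-UC-3 Scr, with KRT5 and KRT17 as the sole overlapping pair.

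The keratins as a whole made up 1.68% to 1.85% of all TPM in RT112 and 0.0262% to 0.0281% in UM-UC-3. The summed keratin level was 16780 to 18490 TPM in RT112 and 262.2 to 280.9 TPM in UM-UC-3. The 10 members held 97.4% to 97.8% of that sum in RT112 and 84.3% to 87.2% in UM-UC-3. KRT8 and KRT18 together held 78.0% to 80.6% of it in UM-UC-3 and 25.1% to 25.3% in RT112. In RT112 the sum was spread over KRT7 (19.5% to 23%), KRT13 (21% to 26%), KRT19 (15.4% to 16.7%), KRT8 (14.0% to 14.2%) and KRT18 (10.9% to 11.1%). The summed type I TPM was 1.23 to 1.49 times the type II TPM in RT112 and 3.51 to 4.74 times in UM-UC-3, where KRT18 alone held 80.4% to 82.6% of the type I sum.

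**Figure D3:**
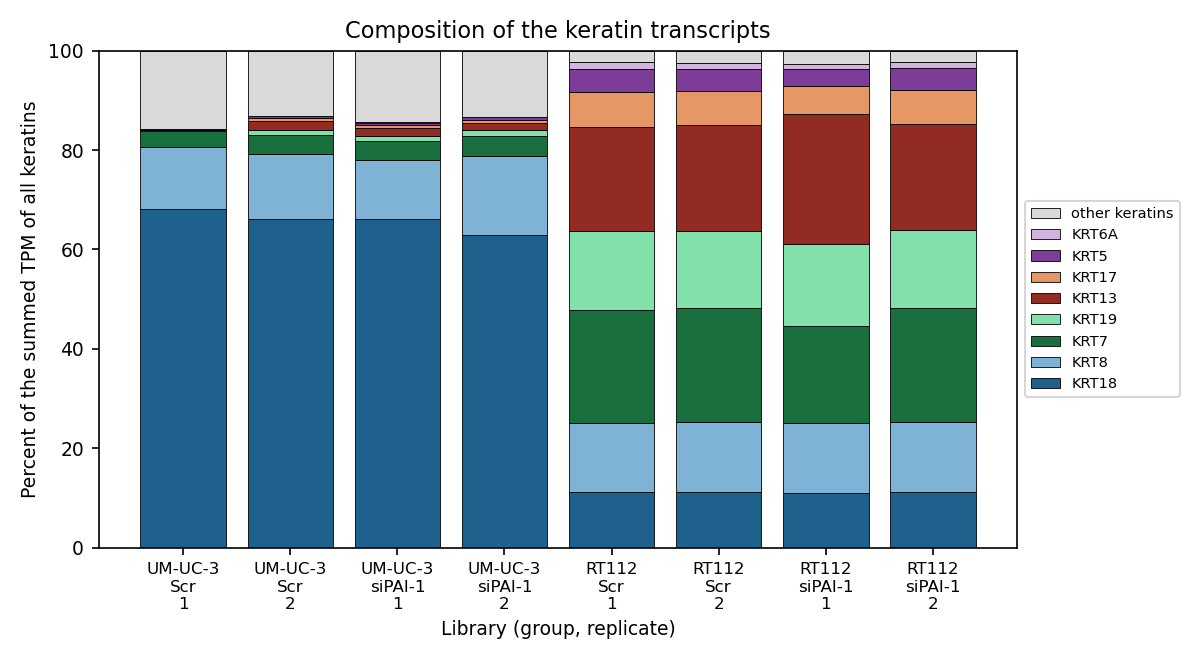
Share of each keratin in the summed TPM of all keratins, in percent, as a stacked bar for each of the 8 libraries. KRT18 and KRT8 make up 78.0% to 80.6% of the UM-UC-3 bars, whereas the RT112 bars are divided among KRT7, KRT13, KRT19, KRT8 and KRT18.

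Of the other 44 keratins on the type I and type II lists, 11 reached a mean of 1 TPM in any group and 33 did not, of which 7 were at 0 in all libraries. Among the 13 other type I keratins tested, 5 were called higher in RT112 Scr and 1 was called lower, where 25.3% of all genes were called higher and 26.3% lower. Among the 17 other type II keratins tested, 9 were called higher and none lower. KRT80, a widely expressed type II keratin, was the most abundant of them beside KRT4, at 167.37 and 159.1 TPM in RT112 Scr and 3.76 and 3.01 TPM in UM-UC-3 Scr, a log2 fold change of 5.56 (SE 0.13; adjusted p = 0.000275, limma). KRT10, the type I keratin of cornifying epidermis, differed less than any of the members, with 40.24 and 37.55 TPM in RT112 Scr and 17.62 and 16.6 TPM in UM-UC-3 Scr (log2 fold change 1.18, SE 0.08; adjusted p = 0.00124, limma). KRT3, KRT23, KRT33A and KRT78 stood at 1.54 to 7.46 TPM in RT112 Scr and were listed at 0 in every UM-UC-3 library. KRT32 was the type I keratin called lower, at a mean of 0.06 TPM in RT112 Scr against 0.625 TPM in UM-UC-3 Scr. KRT10, KRT15 and KRT16 were, of the 10 keratins of the panel and KRT4, KRT10, KRT15, KRT16 and KRT80, those whose UM-UC-3 level came closest to the RT112 level, at 39.4% to 42.3%, 25.7% to 45.8% and 92.4% to 127% of it over the 4 UM-UC-3 libraries, while KRT18 lay at 8.46% to 9.41% and KRT8 at 1.24% to 1.67%.

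**Figure D4:**
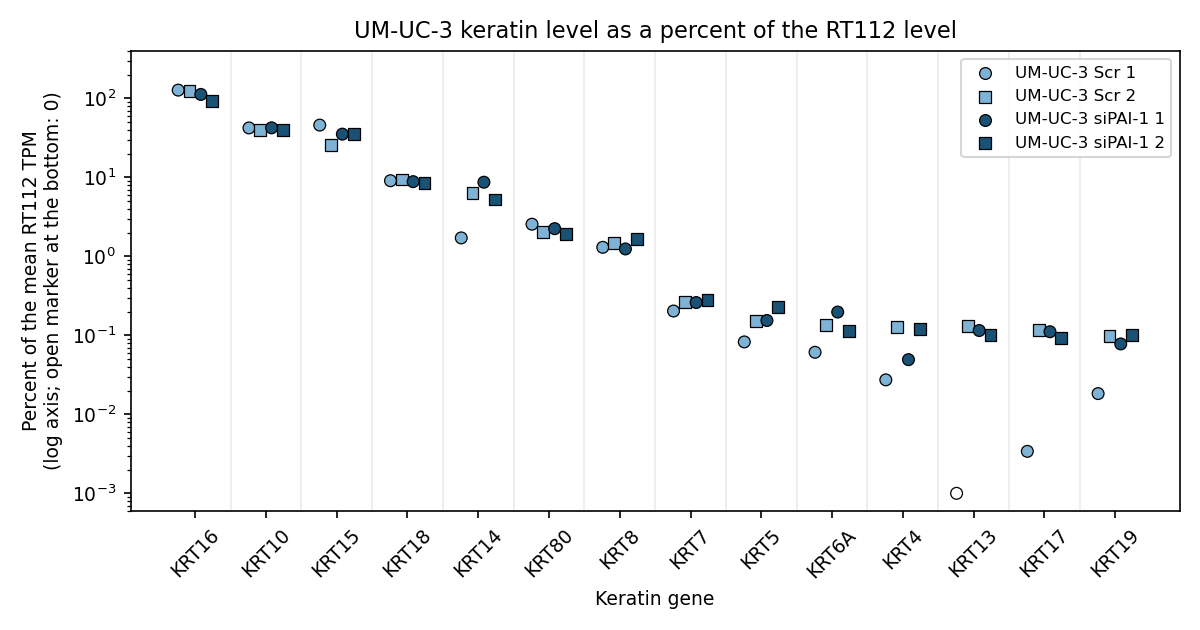
Level of 14 keratins in each UM-UC-3 library as a percent of the mean level of the 4 RT112 libraries, on a log axis, with an open marker at the bottom for a value of 0. KRT16, KRT10 and KRT15 lie between 25.7% and 127%, KRT18 near 9% and KRT8 below 2%, whereas KRT13, KRT17 and KRT19 lie near 0.1% in 3 libraries and lower in Scr replicate 1.

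Of 12 genes whose products attach keratin filaments to desmosomes and hemidesmosomes, 11 were called higher in RT112 Scr and none lower, and the median over the list was 5.47 on the log2 scale. Over all genes tested in Scr, 25.3% were called higher and 26.3% lower, the shares that stand beside each list count in Scr below. ITGB4, the hemidesmosomal integrin, had a log2 fold change of 9.10 (SE 0.16) and JUP, plakoglobin, one of 6.89 (SE 0.08). PLEC, the cytolinker plectin, differed by only 0.51 (SE 0.05), and DST, which was not called, by 0.03 (SE 0.10). In the siPAI-1 cells 10 were called higher and 1, DST, lower (-0.32, SE 0.08, adjusted p = 0.0357, limma), where 26.2% of all genes were called higher and 26.1% lower. PLEC was not called in the siPAI-1 cells (0.39, SE 0.14, adjusted p = 0.0839, limma). Among 14 other intermediate filament genes, 2 were called higher and 5 lower in RT112 Scr. VIM had a log2 fold change of -8.75 (SE 0.15; adjusted p = 0.000242, limma), opposite to that of every keratin of the panel. The nuclear lamin gene LMNA stood at 837.8 and 850.21 TPM in RT112 Scr and at 853.26 and 903.28 TPM in UM-UC-3 Scr. Of 15 transcription factors known from urothelium and keratinocytes, 13 were called higher in RT112 Scr and 2 lower. TP63, the master factor of basal cells, stood at 34.82 and 37.41 TPM in RT112 Scr and at 0.28 and 0.18 TPM in UM-UC-3 Scr, and ELF3 at 191.53 and 192.3 TPM against 0 and 0.32 TPM. The 2 called lower were KLF4 and TFAP2A, the latter at 25.4 and 25.82 TPM in RT112 Scr and 50.03 and 44.43 TPM in UM-UC-3 Scr. Of 11 tested genes of squamous differentiation, 6 were called higher and 2, DSC3 and SBSN, lower. IVL, the cornified envelope protein involucrin, led these at 242.62 and 238.11 TPM in RT112 Scr against 0.14 and 0.21 TPM in UM-UC-3 Scr. No test of these lists against other genes was made.

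The line comparison was repeated in the siPAI-1 cells, which are other libraries than those above. All 10 keratins were again called higher in RT112, where 26.2% of the 19359 genes tested were called higher. Their median log2 fold change was 8.56 against -0.02 over all genes. The values were 3.49 (SE 0.06) for KRT18, 6.08 (SE 0.16) for KRT8, 8.43 (SE 0.13) for KRT7, 10.07 (SE 0.14) for KRT19 and 9.85 (SE 0.10) for KRT13. For the basal and squamous keratins they were 8.81 (SE 0.25) for KRT5, 3.55 (SE 0.32) for KRT14, 9.69 (SE 0.16) for KRT17 and 8.69 (SE 0.32) for KRT6A. The adjusted p of these 9 genes was at most 0.00224 (limma). KRT18 and KRT14, the lowest of these, differed from each other by less than the SE of KRT14. The highest, KRT19, KRT13 and KRT17, stood in UM-UC-3 siPAI-1 at the trace of about 0.1% of the RT112 level described above, whose origin was not tested. KRT20 was at 2.1 and 0.62 TPM in RT112 siPAI-1 and was listed at 0 in both UM-UC-3 siPAI-1 libraries, so that no fold is given (adjusted p = 0.0122, limma; 0.0511 with a pseudocount of 1 TPM).

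The second question was whether depletion of PAI-1 changed the keratins within each line. In UM-UC-3 none of the 10 keratins passed the limma test, and 0% of the 18528 genes tested did. At an unadjusted p under 0.05 the count of keratins was also 0, where 6.01% of all genes passed. KRT18 stood at 173.76 and 166.92 TPM after siPAI-1 against 178.81 and 185.71 TPM in Scr, the single keratin of which both siPAI-1 libraries lay below both Scr libraries, as did 17.1% of all genes. The log2 difference was -0.10 (SE 0.05; adjusted p = 0.858, limma), and leaving out each library in turn gave -0.13 to -0.07. KRT8 stood at 31.24 and 42.09 TPM after siPAI-1, on either side of its Scr values, a log2 difference of 0.06 (SE 0.16; adjusted p = 0.951, limma). KRT5 was the single keratin that lay above both Scr libraries, as did 15.1% of all genes, with 1.18 and 1.74 TPM after siPAI-1 against 0.63 and 1.16 TPM. These levels of KRT5 were 0.154% and 0.228% of its mean RT112 level, where the 13 genes above reached up to 0.183% and 0.19% in the same libraries.

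The differences fitted for the other low keratins of UM-UC-3 had wide errors. KRT13 had a log2 difference of 2.59 (SE 1.83; adjusted p = 0.858, limma), KRT17 one of 1.52 (SE 1.14) and KRT19 one of 0.98 (SE 0.77). Without Scr replicate 1 all 3 changed sign, to -0.28 (SE 0.16), -0.18 (SE 0.26) and -0.13 (SE 0.29). For these 3 genes Scr replicate 1 was far below, and Scr replicate 2 within or above, the siPAI-1 libraries: KRT13 was 5.26 TPM in Scr replicate 2 and 4.57 and 4.08 TPM after siPAI-1. They were the largest of the 10 fitted differences in UM-UC-3, whose median was 0.58 against -0.01 over all genes and -0.08 without Scr replicate 1. KRT14, KRT5 and KRT6A moved from 0.77, 0.68 and 0.49 to 0.07, 0.28 and 0.11 without that library. KRT7, the remaining keratin above 5 TPM in each UM-UC-3 library, stood at 10.27 and 10.93 TPM after siPAI-1 and 7.99 and 10.45 TPM in Scr (log2 difference 0.21, SE 0.17; adjusted p = 0.862, limma).

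In RT112 none of the 10 keratins passed the limma test after depletion of PAI-1, and 0% of the 18437 genes tested did. The count at an unadjusted p under 0.05 was also 0, where 5.77% of all genes passed. The siPAI-1 libraries lay below both Scr libraries for 4 keratins, KRT6A, KRT7, KRT8 and KRT17, as they did for 14.7% of all genes, and above both for none, where the share of all genes was 18%. The fitted log2 difference was below 0 for 8 of the 10 keratins, with a median of -0.13 against 0.01 over all genes, and the adjusted p was between 0.838 and 0.936 for all 10.

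KRT6A had the largest difference among the abundant keratins, at 142.07 and 211.11 TPM after siPAI-1 against 263.93 and 234.87 TPM in Scr. The log2 difference was -0.52 (SE 0.20; unadjusted p = 0.052 and adjusted p = 0.838, limma). KRT5 stood at 592.88 and 800.33 TPM after siPAI-1 and 878.71 and 783.75 TPM in Scr (log2 difference -0.27, SE 0.16). KRT17 stood at 950.66 and 1219.37 TPM after siPAI-1 and 1277.21 and 1258.31 TPM in Scr (log2 difference -0.24, SE 0.13). For KRT6A, KRT5 and KRT17 alike siPAI-1 replicate 1 was the lowest library, while replicate 2 lay within the Scr values for KRT5 and below them for KRT17 and KRT6A. KRT7 had the same pattern, at 3277.94 and 4135.84 TPM after siPAI-1 against 4193.33 and 4167.2 TPM (log2 difference -0.18, SE 0.12).

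The keratins were not all low in siPAI-1 replicate 1. As a percent of the mean Scr level, siPAI-1 replicate 1 held 57% of KRT6A, 67.8% of KRT80, 71.3% of KRT5, 75% of KRT17, 75.3% of KRT14 and 78.4% of KRT7. It held 90.2% of KRT18, 92.2% of KRT8 and 97.6% of KRT19, and it exceeded Scr for KRT13 at 113% and for KRT4 at 150%. siPAI-1 replicate 2 held 84.6% of KRT6A and 93.2% to 98.9% of KRT80, KRT5, KRT17, KRT14, KRT7, KRT18 and KRT8, with KRT13 at 98.9%, KRT19 at 99.1% and KRT4 at 111%. CDH2, FN1 and SNAI2, the mesenchymal genes that were higher in RT112 Scr than in UM-UC-3 Scr, were lowest in replicate 1 as well. They stood at 7.65, 58.25 and 42.91 TPM there against 17.94, 108.44 and 62.75 TPM in replicate 2. Leaving this library out gave a log2 difference of -0.24 (SE 0.11) for KRT6A, -0.05 (SE 0.11) for KRT5, -0.06 (SE 0.03) for KRT17 and -0.01 (SE 0.03) for KRT7. Without siPAI-1 replicate 2 the values were -0.81 (SE 0.11), -0.48 (SE 0.11), -0.41 (SE 0.03) and -0.35 (SE 0.03), and none was called in either fit.

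**Figure D5:**
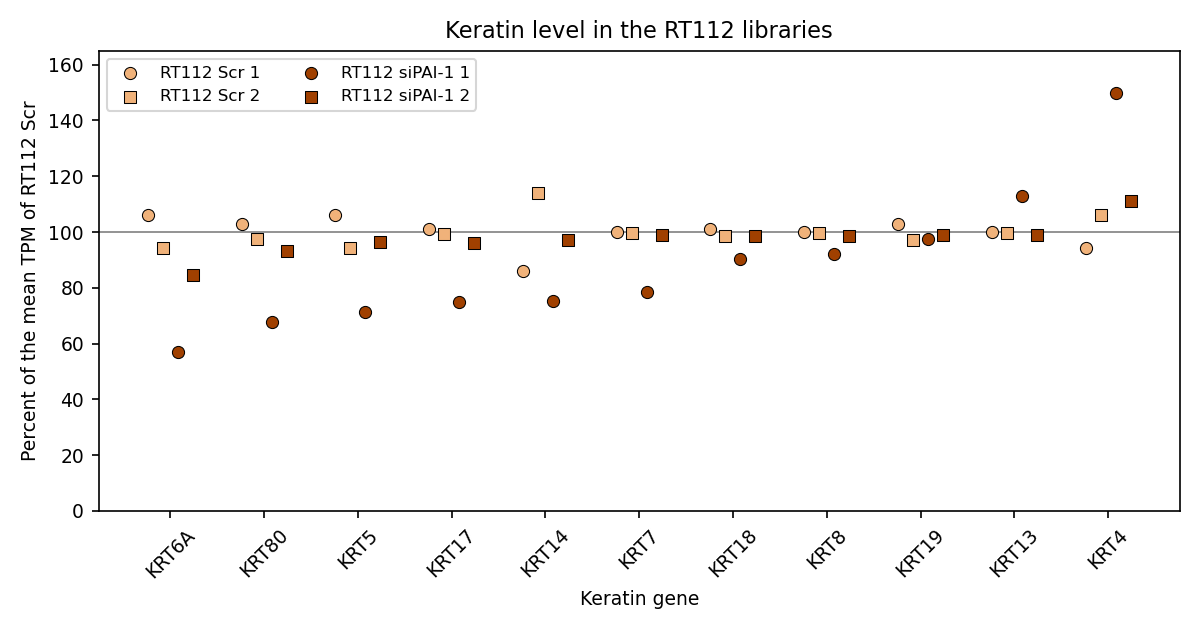
Level of 11 keratins in each RT112 library as a percent of the mean of the RT112 Scr libraries, with Scr in light and siPAI-1 in dark orange, replicate 1 as circles and replicate 2 as squares. siPAI-1 replicate 1 is the lowest library for KRT6A, KRT80, KRT5, KRT17, KRT14, KRT7, KRT18 and KRT8 and the highest for KRT13 and KRT4, while siPAI-1 replicate 2 lies between 84.6% and 111% for every keratin shown.

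KRT8, KRT18, KRT19 and KRT13 differed by at most 0.08 on the log2 scale. KRT8 stood at 2373.16 and 2532.84 TPM after siPAI-1 against 2580.05 and 2566.49 TPM in Scr (log2 difference -0.07, SE 0.06) and KRT18 at 1830.23 and 2003.44 TPM against 2054.79 and 2002.97 TPM (log2 difference -0.08, SE 0.06). The ratio of KRT18 to KRT8 stayed between 0.771 and 0.796 in the 4 RT112 libraries. KRT19 stood at 2797.03 and 2840.31 TPM against 2942.17 and 2788.45 TPM (log2 difference -0.02, SE 0.06) and KRT13 at 4363.12 and 3829.11 TPM against 3882.05 and 3857.53 TPM (log2 difference 0.08, SE 0.08). The 2 low members had wide errors, with log2 differences of -0.21 (SE 0.23) for KRT14 and 0.48 (SE 0.84) for KRT20. Among the other keratins, none of the 15 type I and none of the 21 type II genes tested passed after adjustment. KRT10 stood at 45.38 and 43.95 TPM after siPAI-1 against 40.24 and 37.55 TPM in Scr, and KRT4 at 238.32 and 176.49 TPM against 149.16 and 167.65 TPM, both with siPAI-1 above Scr (log2 differences 0.20, SE 0.08, and 0.38, SE 0.16; adjusted p = 0.838 for both, limma).

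Whether the effect of PAI-1 depletion on the keratins differed between the lines was tested as an interaction. None of the 10 keratins passed after adjustment, and 0% of the 20274 genes tested did. None passed at an unadjusted p under 0.05, where 6.76% of all genes did. The fitted interaction was -0.95 for KRT5 and -1.01 for KRT6A on the log2 scale, RT112 minus UM-UC-3, from UM-UC-3 levels of 0.13 to 1.74 TPM (adjusted p = 0.75 for KRT5 and 0.772 for KRT6A, limma), and -0.55 and -0.63 without UM-UC-3 Scr replicate 1. With 2 libraries a group, a p that misses the threshold does not show that the keratins responded alike.

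The genes whose profile over the 8 libraries was most like that of a keratin were sought for KRT5, KRT13 and KRT18, leaving out other keratins, by the root mean square distance between centred log2(TPM + 0.1) profiles. The nearest to KRT5 were LAPTM5 (0.17), ETFA (0.22) and IVL (0.22). The nearest to KRT13 were LY6D (0.27), a membrane protein of stratified epithelium, S100P (0.78) and S100A14 (0.87), each of which was also at 0 in UM-UC-3 Scr replicate 1. The nearest to KRT18 were GALNT1 (0.06), LINC01204 (0.08) and ARHGAP23 (0.10). LINC01204 was at 0 in every UM-UC-3 library and at 0.85 to 1.13 TPM in RT112, so that its distance depends on the added 0.1 TPM. The points of these profiles are the same 8 libraries, and the distance is dominated by the difference between the lines.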

How the data were processed

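Messenger RNA was measured in 8 libraries (QIASeq stranded mRNA kit, single reads of 75 bases). The authors aligned reads with STAR 2.5.0 to GRCh38 and quantified them with RSEM 1.2.25, per the processing notes, and deposited TPM and FPKM per gene. The methods also name featureCounts and DESeq2, but the counts were not used here. TPM has the same sum in each library, so the share taken by abundant genes lowers all others. Here log2(TPM + 0.1) was fitted with limma 3.58.1 (trended eBayes, R 4.3.3) for each pair of groups, keeping human genes that exceeded 0 TPM in any of the libraries fitted, and p-values were adjusted by Benjamini-Hochberg across every gene kept, at a threshold of 0.05. Depth was estimated from FPKM steps of short single-transcript genes, as the deposited FPKM tables hold no counts. The script was tested on simulated data with 200 changed genes. The 10 keratins and all gene lists were chosen with earlier results of these data known. Named genes were the 10 keratins, other keratins with a group mean of at least 1 TPM, examples of each list among its highest means, and the 3 nearest profiles to KRT5, KRT13 and KRT18; KRT6C, KRT32, TP63, KLF4, TFAP2A, DSC3, SBSN, DST and CDH2 were named after their values were seen. Keratin pseudogenes had no entry in the table, and the level of the targeted gene is not reported here. Alternatives were another pseudocount, FPKM, rescaling, other filters, no trend, a replicate block, a joint fit and leaving out each library.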

Additional observations from a re-analysis of the deposited data

How the results depend on the processing

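Of 753 values recomputed for 61 results, 695 kept their direction and side of the threshold, or stayed within 1.5 times of a count. The count of keratins called higher in RT112 was 10 in both line contrasts. In Scr it was 8 to 10 under the other settings and 5 to 9 when a library was left out, with 5 called without RT112 Scr replicate 1 and 5 without RT112 Scr replicate 2. KRT13, KRT14, KRT17, KRT19 and KRT20 then missed the threshold, with fewer samples in the fit. In siPAI-1 it was 9 or 10. Over all genes, 9909 were called in the Scr line contrast and 5698 to 6564 when a library was left out. In siPAI-1 10108 were called, and 5294 to 7142 when a library was left out.

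For the knock-down, no keratin was called under any setting in either line. Over all genes the main count was 0 in both lines. In UM-UC-3 it was 1 when genes averaging under 1 TPM were left out and 29 with no filter on low values. In RT112 it was 58 with no filter and 2 in the joint fit over 8 libraries. The interaction called 0 genes, 73 with no filter and 7 without the trend, and 0 to 123 when a library was left out, with 0 to 1 keratins among them: 1 without UM-UC-3 Scr replicate 2, the fit that rests on UM-UC-3 Scr replicate 1 alone. Direction turned when a library was left out for 4 of the 10 keratins of UM-UC-3 and for 3 of those of RT112. The cause was not tested. The range over the libraries left out in UM-UC-3 was -0.158 to 0.271 for KRT8, -0.279 to 5.465 for KRT13, -0.176 to 3.216 for KRT17 and -0.132 to 2.084 for KRT19. All 4 turned without Scr replicate 1, and KRT8 also turned without siPAI-1 replicate 2. In RT112 it was -0.062 to 0.016 for KRT19, -0.015 to 0.173 for KRT13 and -0.346 to 1.303 for KRT20.

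With the replicate number as a block, 10 keratins were called in each line contrast and 0 in each knock-down, so that the replicate block changed no call. Deviations of same-numbered libraries correlated at -0.043 to 0.044, so the numbers were not taken to pair the samples. With 2 libraries a group and no counts, even knock-down differences larger than their SE were not called. KRT6A in RT112, at -0.52 (SE 0.20), had an adjusted p of 0.838 (limma). A variant with keratin pseudogenes added was not run, as the table had no entry for them.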
